A study of Homo sapiens with 12 samples.

Results

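RNAs that came down with Flag-tagged SRSF3 were compared with the RNAs of the matching input in MDA-MB231, an established human breast cancer cell line that was made to overexpress flag-SRSF3. A gene was taken in where its level was 1 FPKM or more (a read level divided by gene length and by library size) in the RIP or in the input, which left 10693 of the 60675 genes in the deposited table. RIP, or RNA immunoprecipitation, recovers RNA together with a protein, here with an antibody against the Flag tag. The values are log2((RIP + 1)/(input + 1)), computed once from the deposited FPKM table and once from a second deposited table of normalised signal for the same libraries. There was 1 RIP library (RIP_flag_SRSF3) and 1 input library (input_flag_SRSF3), so the RIP comparison has no replicate check and no test. A gene is called recovered, or depleted, where its ratio was at least 2-fold higher, or lower, in both tables. Both tables come from the same libraries, so agreement between them says nothing about repeat experiments.

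The series has 12 samples in MDA-MB231. Beside the Flag-SRSF3 pair these are 1 RIP and 1 input from cells overexpressing flag-TDP43, and 2 RNA-seq libraries each of cells stably carrying a lentiviral hairpin: sh_control, sh_TDP43, sh_SRSF3, or both sh_TDP43 and sh_SRSF3. The combined knockdown was not analysed here. No library of an untagged or mock precipitation is among the samples used here, so RNA that binds to the antibody or the beads is not measured; the Flag-TDP43 RIP over its own input serves as the comparison measured in the same way. The tagged proteins were overexpressed, and the labels do not say from which promoter or whether the cells were 1 clone.

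SRSF3 is a small serine- and arginine-rich (SR) protein. SR proteins bind exons in the nucleus and help the splicing machinery to find splice sites, and SRSF3 also moves between nucleus and cytoplasm. It is known as an adaptor that hands mRNA, including the intronless histone mRNAs, to the export receptor NXF1, and as a factor in 3′ end choice and in the processing of primary miRNA transcripts.

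The members at the edge of the 1 FPKM rule were SLC11A2 (0.910 FPKM in the RIP, 1.00 in the input) and FAM207BP (1.00 and 0.696) just inside, while AQP8 and PIGUP1, each listed at 0 in the other library, lay just under 1 FPKM. RIP depth, read from the smallest step of FPKM times gene length, came to 28.2 M reads in the Flag-SRSF3 input, 28.4 M in the Flag-TDP43 input and 27.7 M in either RIP. Of the markers of MDA-MB231, 9 of 10 were at 1 FPKM or more, led in the input by VIM (422 FPKM), AXL (251 FPKM) and PLAU (124 FPKM), while SPARC stood at 0.251 FPKM. Of the luminal breast markers 7 of 12 were members, led in the input by KRT19 (125 FPKM), KRT18 (95.6 FPKM), KRT8 (58.7 FPKM) and XBP1 (29.5 FPKM), while ESR1, PGR, GATA3 and FOXA1 were listed at 0 in both libraries. Of the haematopoietic markers 1 of 9 was a member (CD14, 1.32 FPKM in the RIP), of the fibroblast markers 0 of 9, and of the embryonic kidney markers 1 of 6 (GAL, 2.49 FPKM in the RIP and 0.381 in the input).

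By this rule 798 genes were recovered, 7.46% of the members, and 467 were depleted, 4.37% of the members. The leading recovered RNAs were histone mRNAs, above all of histone H2B, the mRNAs encoded in mitochondria, and a set of abundant mRNAs that includes the ferritin chains, MT2A and LGALS1. The leading depleted RNAs were the 7SL RNA, the RNA of ribonuclease P and small Cajal body RNAs. The median ratio over all members was 0.18 on the log2 scale in the FPKM table and 0.04 in the signal table. With each table centred on its own median the split became 631 recovered and 641 depleted.

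**Figure D1:**
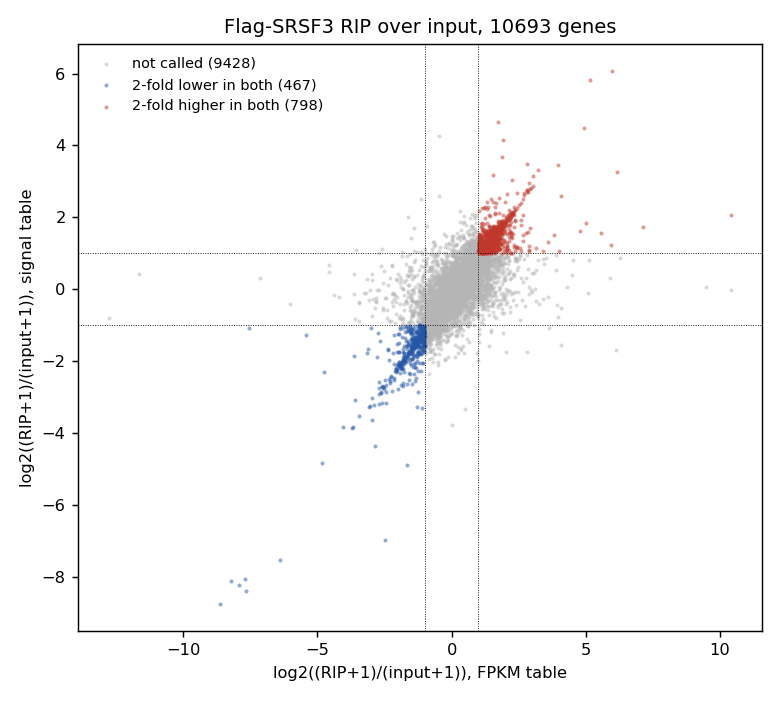
Each point is a gene, placed by its log2 ratio of Flag-SRSF3 RIP over input in the FPKM table (x axis) and in the signal table (y axis), with dotted lines at 2-fold. The 798 genes in red were 2-fold higher and the 467 in blue 2-fold lower in both tables, and the grey points spread widely along the x axis show genes called in the FPKM table alone.

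The plot of both tables shows how far they differ. The ratio had the same sign for 8844 genes (82.7%), and the Pearson correlation across genes was 0.73, where genes are no independent replicates and share the reads behind both tables. The FPKM table alone put 1574 genes 2-fold higher and 729 lower, while by signal these were 1033 and 861, and 23 genes were called in opposite directions. RPL13A, a ribosomal protein gene, was at 6.77 FPKM in the RIP and 508 FPKM in the input, but at 974 and 1299 in the signal table. LDHA, the lactate dehydrogenase A gene, was at 76.0 against 10.9 FPKM with a log2 ratio of 0.86 in the signal table. A call therefore needs both tables. Read numbers and the levels in FPKM below come from the FPKM table.

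The 2 inputs give the only measure of how far libraries differ without a precipitation. On the same genes the Flag-SRSF3 input was 2-fold higher than the Flag-TDP43 input for 75 genes (0.701%) and lower for 17 (0.159%). These inputs come from cells with different transgenes, so this is not a pure replicate error. When the Flag-SRSF3 RIP was set over the other input, 584 of the 798 recovered genes (73.2%) and 286 of the 467 depleted genes (61.2%) kept their call. Among the mRNAs named below, TIMP2, FOXQ1, SF1, SNRPE, HIST1H4A, THOC7 and HMGB2 lost theirs with log2 ratios still of the same sign (0.98 for TIMP2 in the FPKM table). HNRNPA2B1 lost its call with ratios of opposite sign in the tables (0.91 and -1.06), as did AL592188.6 and SNORD3B-2. An RNU11 gene (ENSG00000274978) went from recovered to depleted, at -1.24 (FPKM) and -1.39 (signal).

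SRSF3 and TARDBP, the gene of TDP43, check the labels. SRSF3 (ENSG00000112081, chromosome 6) was at 54.9 FPKM in the Flag-SRSF3 input and 29.3 FPKM in the Flag-TDP43 input, and TARDBP (chromosome 1) at 1.76 and 14.2 FPKM. Each gene's RNA was thus higher in the input of the cells that overexpress its protein. In the Flag-SRSF3 RIP the SRSF3 RNA was at 91.3 FPKM, a log2 ratio of 0.72, and 0.69 in the signal table, which is below the 2-fold line. The transgene's own RNA and the endogenous RNA are not separated in these values.

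Histone mRNAs of the replication-dependent clusters end in a stem-loop instead of a poly(A) tail, and most have no intron. Of 51 histone genes among the members, 26 were recovered and 3 depleted, with medians of 1.34 (FPKM) and 1.45 (signal) on the log2 scale against 0.18 and 0.04 over all members. The class of histone went with the size. Of 16 H2B genes 12 were recovered, with medians of 2.09 and 2.66. Of 12 H2A genes 7 were recovered (1.62 and 1.46), of 3 H1 genes 2, of 10 H3 genes 3, and of 10 H4 genes 2, where the H4 medians were -0.01 and -0.24. Over the other input 26 histone genes were recovered and 1 depleted. The difference between classes was not tested.

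HIST1H2BK (ENSG00000197903) was at 3568 FPKM in the RIP and 506 FPKM in the input, with 497 FPKM in the other input. HIST1H2BO was at 3917 and 556 FPKM, and HIST1H2BM at 307 and 36.1 FPKM. All of these H2B genes were far above either input. From the size of 1 read, HIST1H2BM had about 3240 reads in the RIP and 387 in the input, an 8.50-fold difference with an exact 95% interval of 7.65 to 9.47. Such intervals cover counting error only. HIST1H3C, of class H3, was at 5446 and 1150 FPKM, and HIST1H1E, a linker histone, at 3783 and 737 FPKM.

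As a class H4 stood apart from H2B at the same depth, though its genes ranged from -2.98 to 1.95 in log2 ratio (FPKM). HIST1H4B had about 6706 reads in the RIP and 7322 in the input, a fold of 0.930 (exact 95% interval 0.899 to 0.961). HIST1H4C was at 283 FPKM in the RIP and 384 FPKM in the input, and HIST2H4A at 6.83 and 60.7 FPKM. HIST1H4A had about 1321 reads against 2878. HIST1H4J went the other way, with 3496 and 1191 FPKM, as did the scarce HIST1H4I, with about 165 reads against 16. HIST1H4K was also above its input, at 1.37-fold (exact 95% interval 1.32 to 1.41). Histone genes are near-identical copies of each other, and the tables do not say how reads that match several copies were shared out. The tables differed for HIST2H3A, which was at 637 FPKM in the RIP and 7.24 FPKM in the input, but had a log2 ratio of only 0.87 in the signal table.

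**Figure D2:**
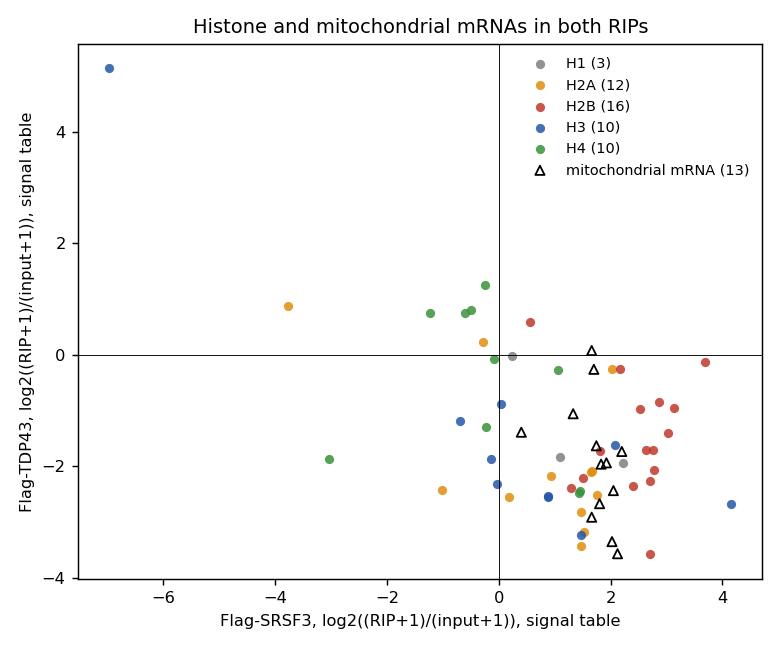
Each point is a histone gene, coloured by class, or a mitochondrially encoded mRNA (triangles), placed by its log2 ratio of RIP over input in the signal table for Flag-SRSF3 (x axis) and Flag-TDP43 (y axis). Most H2A and H2B genes and the mitochondrial mRNAs lie to the right of 0 and below 0, while most H4 genes lie left of 0.

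As a list the histone mRNAs were low in the other precipitation, but class H4 stood apart there too. The H4 medians with Flag-TDP43 were 0.12 and -0.18, with 3 of 10 genes lower and 1 higher. With Flag-TDP43, 30 of the 51 histone genes were 2-fold lower and 1 was higher than the input, on a background of 1010 lower (9.45%) and 960 higher (8.98%) among the same 10693 genes. The histone medians with Flag-TDP43 were -1.72 (FPKM) and -1.83 (signal). HIST1H2BO was at 3917 FPKM in the Flag-SRSF3 RIP with a log2 ratio of 2.81, and had a log2 ratio of -3.42 with Flag-TDP43.

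The 13 mRNAs encoded in mitochondria, which are made and translated inside that organelle, formed the other large group. Of these 12 were recovered and 0 depleted, with medians of 1.85 and 1.80. MT-CO1, a subunit of cytochrome c oxidase, was at 1651 FPKM in the RIP, 336 FPKM in its input and 265 FPKM in the other input. MT-ND3, a subunit of complex I, was at 201, 38.5 and 17.6 FPKM. In both cases the RIP was above each input. MT-ND6 was the mRNA that was not called, with about 353 reads in the RIP and 237 in the input (1.51-fold, exact 95% interval 1.28 to 1.79). Mitochondrial rRNAs and tRNAs were recovered for 8 of 21 members. With Flag-TDP43 10 of the 13 mRNAs were 2-fold lower than input, and MT-CO1 was at 23.5 FPKM in that RIP.

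Abundant noncoding RNAs took a far larger share of the input than of the RIP. Of 8 members among the RNAs of polymerase III and other abundant noncoding RNAs, 5 were depleted and 0 recovered, with medians of -1.73 and -2.18. RN7SL1 (ENSG00000276168), the RNA of the signal recognition particle, was at 209 FPKM in the RIP, 83887 FPKM in the input and 81970 FPKM in the other input. RPPH1, the RNA of ribonuclease P, was at 247 FPKM against 60804 FPKM. RMRP, the RNA of ribonuclease MRP, was at 1825 against 8642 FPKM. RN7SK, which holds the elongation factor P-TEFb inactive, was at 33194 against 115621 FPKM. The order of the loss was the same in the signal table for these RNAs, with RN7SL1 and RPPH1 far below RMRP and RN7SK.

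RNAs of this kind, with their many copies, made up 11% of the reads in the Flag-SRSF3 input, 1.17% in its RIP, 10.9% in the Flag-TDP43 input and 0.147% in the Flag-TDP43 RIP. Their depletion was thus seen in both precipitations. As FPKM and signal are shares of a library, a smaller share of these RNAs raises the share of others, and how much of other ratios this makes up was not tested.

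Small Cajal body RNAs, which guide the modification of spliceosomal snRNAs, were depleted for 8 of 13 members and recovered for 0, with medians of -1.48 and -1.70. SCARNA2 was at 30.1 FPKM in the RIP and 393 FPKM in the input, and SCARNA13 at 20.5 and 139 FPKM. For SCARNA2 this was about 350 reads against 4650, a fold of 0.0764 (exact 95% interval 0.0684 to 0.0852). With Flag-TDP43 SCARNA2 went the opposite way, from 428 FPKM in the input to 8115 FPKM in the RIP, as did SCARNA7 (56.3 to 1539 FPKM). SCARNA10 was lower in both RIPs, with log2 ratios of -3.71 and -1.39.

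Spliceosomal snRNAs were depleted for 11 of 29 members and recovered for 3, with medians of -0.92 and -0.95. RNU4-1, a U4 snRNA copy, was at 6.99 FPKM in the RIP and 65.6 FPKM in the input. RNU4ATAC, of the minor spliceosome, had about 61 reads against 13 (4.76-fold, exact 95% interval 2.59 to 9.45). Box C/D snoRNAs, guides for methylation of ribosomal RNA, were depleted for 11 of 35 and recovered for 3, and box H/ACA snoRNAs, guides for pseudouridine, were depleted for 9 of 41 and recovered for 5. Over the other input the depleted counts were 5 for snRNAs, 2 for box C/D and 4 for box H/ACA snoRNAs, against 7 for small Cajal body RNAs. Many of these genes had few reads. Many snRNA copies are near-identical, and many snoRNAs lie in introns of host genes, so single values of both kinds are uncertain.

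**Figure D3:**
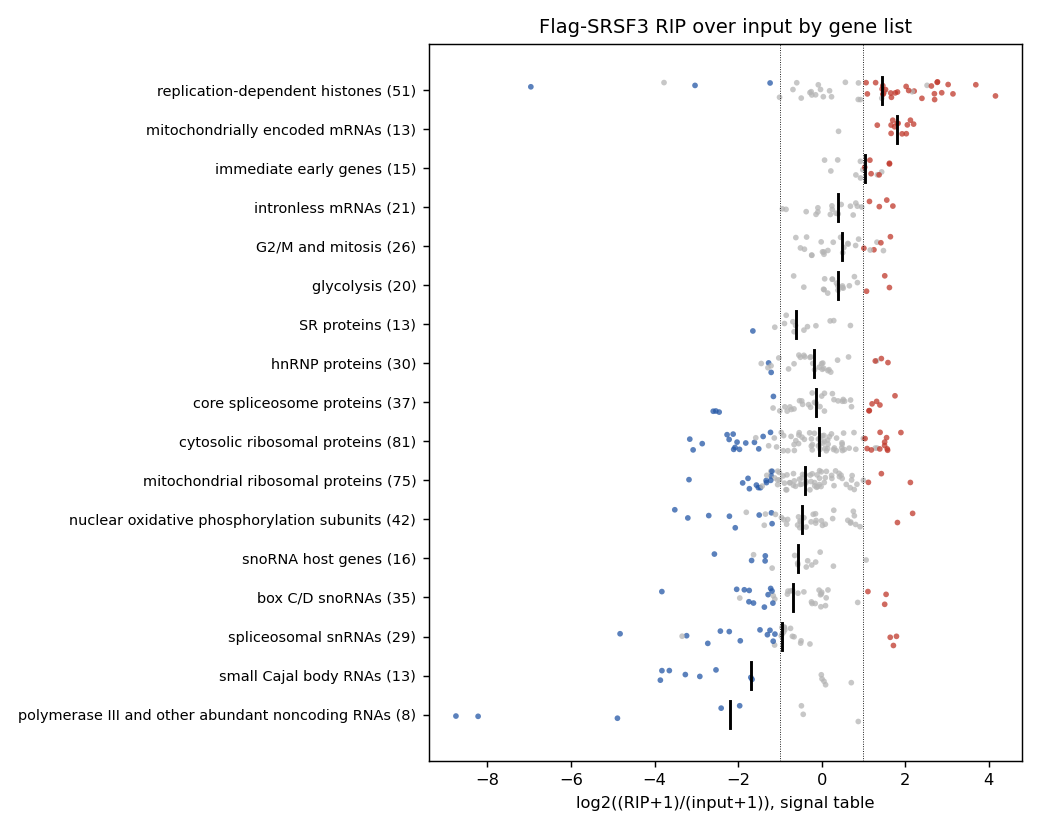
Each point is a member of a gene list (number of members in parentheses), placed by its log2 ratio of Flag-SRSF3 RIP over input in the signal table, with black bars at the list median and dotted lines at 2-fold. Red and blue points were 2-fold higher or lower in both tables, and the medians run from 1.80 for mitochondrially encoded mRNAs to -2.18 for the polymerase III list.

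Abundant mRNAs of nuclear genes are given next, chosen after their values were seen: genes at 10 FPKM or more in both libraries whose call held over either input, of which there were 210, ranked by the smaller of the 2 ratios. Some genes scarce in the input had higher ratios in both tables. Outside the histone and mitochondrial genes the list was led by MT2A, PHLDA2, FTH1, TIMP1 and FTL. MT2A, a metallothionein that binds zinc, was at 615 FPKM in the RIP, 94.2 FPKM in its input and 93.8 FPKM in the other input. PHLDA2, an imprinted growth regulator, was at 212, 32.9 and 31.0 FPKM. Both inputs agreed closely for these genes, and the RIP stood far above them.

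FTH1 and FTL encode the heavy and light chains of ferritin, the iron store of the cell. FTL was at 3974 FPKM in the RIP against 725 and 814 FPKM in the inputs, and FTH1 at 203 against 37.1 and 39.9 FPKM. Galectin-1 (LGALS1) was at 1641 against 326 FPKM, S100A11, a calcium-binding protein, at 423 against 87.9 FPKM, and the small heat shock protein HSPB1 at 111 against 23.3 FPKM. The histone variant gene H2AFX, which lies outside the histone list, was at 564 against 113 FPKM. The metalloproteinase inhibitor TIMP1 was at 497 against 98.9 FPKM. With Flag-TDP43 FTL and TIMP1 had log2 ratios of -3.15 and -2.19, FTH1 of 0.02, and MT2A of 0.84.

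The genes with the largest ratios in the FPKM table included pseudogenes, read-through genes and RNAs close to 0 in the input, and only some were as large in the signal table. FP671120.4 (chromosome 21) was at 1418 FPKM in the RIP and 0.05 FPKM in the input, yet at 121 and 28.0 in the signal table. VIM-AS1, annotated antisense to the vimentin gene, was at 78.6 against 0.115 FPKM. Since vimentin itself (VIM) was recovered, at 1301 against 422 FPKM, and no source here gives the strand of the reads, reads of VIM and VIM-AS1 cannot be told apart. BLOC1S5-TXNDC5, a read-through gene, was at 47.3 against 0.350 FPKM and at 106 against 0.891 in the signal table, with log2 ratios of 5.16 and 5.83. HMGB2, a chromatin protein gene at the other end, was at 0.374 against 58.0 FPKM, but at 83.9 against 205 in the signal table, where it was not 2-fold lower than the other input (log2 ratio -0.73).

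Immediate early genes, the fast response to growth factors and stress, were recovered for 6 of 15 members (40%) and depleted for 0. Their medians were 1.04 and 1.03. Of all members 7.46% were recovered and 4.37% depleted. FOSL1, an AP-1 subunit, was at 111 FPKM in the RIP, 34.1 FPKM in its input and 34.8 FPKM in the other input. KLF4, a zinc finger transcription factor, was at 46.1, 11.05 and 12.2 FPKM. FOS, DUSP1, KLF2 and CYR61 were the other recovered members, named because they complete the count. The level in the RIP was higher than in each input for both FOSL1 and KLF4.

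Of 21 intronless mRNAs 4 were recovered (JUNB, CEBPB, JUND and FOXQ1) and 0 depleted, with medians of 0.50 and 0.39. JUNB was at 99.8 against 26.7 FPKM, CEBPB at 96.2 against 30.9 FPKM and JUND at 84.2 against 28.5 FPKM. JUNB and JUND are AP-1 subunits and CEBPB a transcription factor of inflammation. JUND was also recovered with Flag-TDP43, at 211 against 30.2 FPKM. The other 17 of the 21 intronless genes were not called.

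Secreted matrix and adhesion genes were recovered for 3 of 29 (TIMP1 and TIMP2 among them), G2/M genes for 4 of 26 (PLK1, CDC20, MKI67 and KIF20A) and glycolysis genes for 3 of 20 (ALDOA, GAPDH and GPI), with 0 depleted in each. The recovered shares were 10.3%, 15.4% and 15%, where 7.46% of all members were recovered. PLK1, a mitotic kinase, was at 30.7 against 10.1 FPKM. ALDOA, the aldolase of glycolysis, was at 138 against 40.2 FPKM. Of 241 zinc finger genes 10 were recovered (4.15%) and 0 depleted, below the 7.46% and 4.37% of all members, so they were called less often in either direction.

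Calls among the mRNAs of splicing factors went in both directions. Over all members 7.46% were recovered and 4.37% depleted. Of 13 SR protein genes 0 were recovered and 1 was depleted, with medians of -0.38 and -0.63. The depleted gene was SRSF5, at 0.420 against 6.36 FPKM and 10.8 against 36.0 in the signal table. SRSF1 had a log2 ratio of 1.46 in the FPKM table and -1.12 in the signal table, so its direction is not known. Apart from SRSF3 at 0.69, the signal ratios of SRSF2, SRSF4, SRSF6, SRSF7, SRSF9, SRSF10, TRA2A and TRA2B lay between -0.89 and -0.14, all lower and none called. SRSF8 and SRSF11 were at 0.29 and 0.20.

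Of 30 hnRNP genes 3 were recovered (10%), PTBP1, PCBP1 and RALY, and 2 depleted (6.67%), HNRNPA2B1 and HNRNPA3. These shares lie near the 7.46% and 4.37% of all members. PTBP1, the polypyrimidine tract binding protein, was at 86.1 FPKM in the RIP, 24.3 FPKM in its input and 14.8 FPKM in the other input. PCBP1, a poly(C)-binding protein, was at 37.5, 13.3 and 13.4 FPKM. Core spliceosome genes were recovered for 6 of 37 (16.2%) and depleted for 4 (10.8%). The depleted ones all encode Sm ring proteins (SNRPD1, SNRPE, SNRPF and SNRPG), with SNRPG at 7.11 against 44.2 FPKM. SNRPA, a U1 snRNP protein, was at 46.4 against 10.97 FPKM, and the other recovered genes were SF1, SF3A1, SF3A2, SF3B4 and SF3B5. SNRPG went the other way with Flag-TDP43, at 122 against 34.2 FPKM. None of the export, 3′ end and m6A factor genes was recovered (0 of 32), and THOC7 was depleted, though not over the other input (log2 ratio -0.72 in the FPKM table).

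Of 11 genes reported as SRSF3 targets in splicing, SRSF5 was depleted. CD44, the hyaluronan receptor gene with many variable exons, was at 21.4 against 8.65 FPKM with a log2 ratio of 0.85 in the signal table, short of a call. Exons were not measured here. Among the cell polarity genes 0 of 11 were called.

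Lists of nuclear respiration genes and of ribosomal protein genes each held more depleted than recovered members. Over all members 7.46% were recovered and 4.37% depleted. Nuclear subunits of oxidative phosphorylation were depleted for 8 of 42 and recovered for 2, with medians of -0.15 and -0.47. COX7A2 was at 4.21 FPKM in the RIP, 56.6 FPKM in its input and 52.2 FPKM in the other input, and NDUFA1 at 19.98, 124 and 132 FPKM. COX6C was at 3.40 against 31.7 FPKM, and, with Flag-TDP43, at 67.5 against 28.9 FPKM. By contrast, 0 of the 13 mitochondrially encoded mRNAs, which code for subunits of the same respiratory chain and its ATP synthase, were depleted. ATP5D and NDUFS8 were the recovered exceptions.

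Cytosolic ribosomal protein genes split, with 11 of 81 recovered (13.6%) and 15 depleted (18.5%), and medians of 0.04 and -0.06. Both shares lay above the 7.46% and 4.37% of all members. Mitochondrial ribosomal protein genes were depleted for 12 of 75 (16%) and recovered for 3 (4%). Over the other input 7 of these 75 were depleted and 2 recovered. RPS29 was at 277 against 2343 in the signal table and 0.274 against 14.5 FPKM. MRPL33 was at 3.04 against 25.5 FPKM. RPS23 was at 21.9 against 125 FPKM and RPL29, RPLP1 and RPS15 were among the recovered. Ribosomal protein genes have many processed pseudogenes that share their reads, so single values are uncertain. Of 16 snoRNA host genes 4 were depleted (25%) and 0 recovered, with SNHG8 at 11.7 against 82.0 FPKM. GAS5, another snoRNA host, was at 2.94 against 9.26 FPKM.

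Because SRSF3 is known to bind primary miRNA transcripts, the 24 miRNA genes among the members were looked at. Their median ratios were 0.13 and 0.14, with 1 recovered and 2 depleted, where 7.46% and 4.37% of all members were. The recovered gene was MIR6506, with about 2 reads in the RIP and 0 in the input. The depleted genes were MIR641 (about 0 against 5 reads) and MIR6077 (0 against 3). Such calls rest on too few reads to show recovery or depletion. These libraries of long RNA do not measure mature miRNAs, and 4 of the genes had 20 reads or more in sum. MIR4523 and MIR22 had the most reads: MIR22 was at 10.7 against 7.87 FPKM (about 33 and 25 reads) and MIR4523 at 23.7 against 15.5 FPKM (about 45 and 30 reads). Neither passed 2-fold. Their mature sequences are shown to identify them (RefSeq, GRCh38.p14; MIR22 on the minus and MIR4523 on the plus strand of chromosome 17), 5′ to 3′, with the seed, bases 2 to 8, in capitals.
hsa-miR-22-3p: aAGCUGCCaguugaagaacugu
hsa-miR-22-5p: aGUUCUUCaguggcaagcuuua
hsa-miR-4523: gACCGAGAgggccucggcugu
The seeds differ from each other, so no shared seed links these genes.

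Features of the genes that the rule did not use were compared next, over genes at 5 FPKM or more in either library and 1 FPKM or more in both. Short genes were called more often in both directions. Genes were cut into 5 bins of about equal size by each feature. In the bin with the shortest span (up to 5577 bases) 18.1% were recovered and 11.3% depleted, and in the bin with the longest span 5.10% and 1.37%. By number of exon segments the recovered share went from 15.8% at 5 or fewer to 7.04% at 18 or more. Median ratios changed little with exonic length, from 0.20 to 0.27 in the FPKM table between the shortest and the longest bin. Short genes thus varied more, in both directions.

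Genes whose first transcribed bases are rich in G and C had higher ratios. In the bin with 74.4% GC or more over the first 50 transcribed bases of their RefSeq start sites the medians were 0.47 and 0.30, with 15.3% recovered and 2.12% depleted. In the bin with 60% GC or less the medians were 0.16 and 0.01, with 8.39% recovered and 6.01% depleted. With Flag-TDP43 the signal medians of the same bins were -0.25 and -0.20. A value was at hand for 4286 of 5133 genes (83.5%).

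By chromosome, genes on chromosome 19 stood highest among the nuclear chromosomes. Of its 405 genes 99 were recovered (24.4%) and 9 depleted, with medians of 0.79 and 0.65. Chromosomes 22, 17 and 16 followed, with signal medians of 0.33, 0.32 and 0.29, and chromosomes 18 and 4 were lowest at -0.29 and -0.20. With Flag-TDP43 chromosome 19 was the lowest of the nuclear chromosomes, at -0.73. Within the bin of lowest GC, the 62 genes on chromosome 19 had a signal median of 0.51 and the 987 genes elsewhere -0.01, and within the bin of highest GC these were 0.75 (76 genes) and 0.24 (773 genes). The difference thus appears at either end of the GC range.

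**Figure D4:**
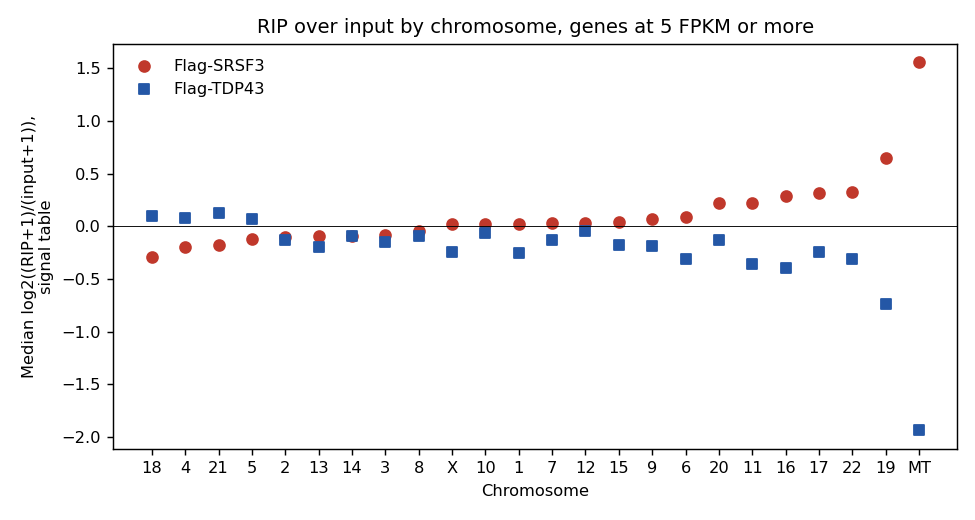
Median log2 ratio of RIP over input in the signal table (y axis) for the genes of each chromosome and the mitochondrial genome (x axis, ordered by the Flag-SRSF3 median), at 5 FPKM or more in either library and 1 FPKM or more in both. Flag-SRSF3 medians (red circles) run from -0.29 on chromosome 18 to 0.65 on chromosome 19 and 1.56 for mitochondrial genes, where Flag-TDP43 (blue squares) is lowest.

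The comparison with RIP_flag_TDP43 asks which RNAs were recovered with either protein. TDP43 is a nuclear protein that binds UG-rich RNA. Of the 798 genes recovered with Flag-SRSF3, 37 (4.64%) were also recovered with Flag-TDP43, which is 3.85% of the 960 recovered there. By contrast 234 genes (29.3%) recovered with Flag-SRSF3 were depleted with Flag-TDP43, or 23.2% of the 1010 depleted there. Of the 467 depleted with Flag-SRSF3, 99 were recovered and 76 depleted with Flag-TDP43. Over all 10693 members 8.98% were recovered and 9.45% depleted with Flag-TDP43. RAC2, a small GTPase, is an example of opposite ratios, at 94.9 against 14.8 FPKM with Flag-SRSF3 and 5.23 against 15.6 FPKM with Flag-TDP43. Each protein has 1 RIP library, so whether this is a difference between proteins or between precipitations cannot be told apart.

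The knockdown is a separate readout in other cells. In sh_SRSF3 the hairpin lowers SRSF3, and the comparison with sh_control asks whether RNAs recovered with the protein change in level when it is reduced. Counts were tested with edgeR's quasi-likelihood test, 2 libraries a group, at a Benjamini-Hochberg adjusted p under 0.05. SRSF3 RNA stood at 459 and 404 CPM (counts scaled to library size) in the control libraries and 64.1 and 61.8 CPM after knockdown (log2 change -2.78, SE 0.10, edgeR adjusted p = 1.63e-10), so the libraries matched their labels. Labels do not say whether the replicates are separate cultures, so a p-value may reflect technical spread only.

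After SRSF3 knockdown a larger share of the recovered than of the uncalled RNAs was lower, and a larger share of the depleted RNAs was higher. Of the 668 recovered genes that could be tested, 321 fell (48.1%) and 167 rose (25%), with a median log2 change of -0.24. Of 320 depleted genes 64 fell (20%) and 154 rose (48.1%), with a median of 0.24. Among the 8450 members called neither way 35.2% fell and 38.6% rose, with a median of 0.05. The background was 35.6% lower and 37.9% higher over all 9438 members tested, and 34.4% and 32.5% over all 15026 genes tested. With upper-quartile scaling 55.7% of the recovered genes fell and 19.9% rose, and of the depleted genes 26.6% fell and 36.6% rose, so the order of the groups held. The p-values apply to single genes, and the difference between groups of genes was not tested.

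**Figure D5:**
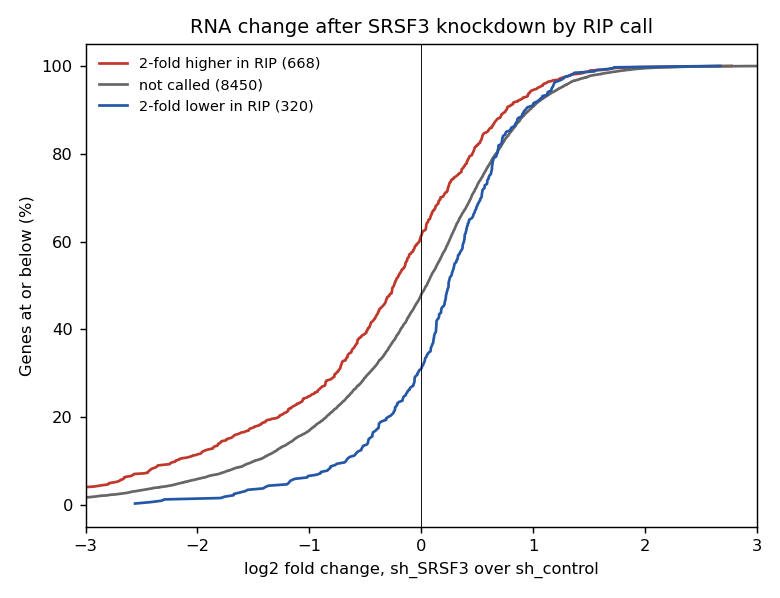
Share of genes (y axis, percent) at or below a given log2 change after sh_SRSF3 against sh_control (x axis, drawn from -3 to 3), for 668 recovered, 8450 uncalled and 320 depleted genes. The recovered genes lie to the left of the uncalled ones over most of the range and the depleted genes to the right, with medians of -0.24, 0.05 and 0.24.

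The relation ran across most of the range of ratios, and the share that fell levelled off at the top. Genes were cut into 10 bins by signal ratio. In the bin with the lowest signal ratio 23.1% fell and 50.3% rose after the knockdown, and in the fifth bin 32.5% and 41.6%. The ninth bin had 47.0% and 28.8%, and the highest bin 46.1% and 26.8%. Across 9438 genes the Pearson correlation of the signal ratio with the log2 change was -0.18, a description across genes that share libraries. Among genes at 5 FPKM or more in both RIP libraries, a limit chosen after seeing the data, 43.1% of 355 recovered and 19.4% of 134 depleted genes fell. On chromosome 19 the recovered genes fell in 36.5% and rose in 32.2% of 115 cases, where the uncalled genes fell in 29.5%. Within each bin of exonic length the recovered genes fell more often than the uncalled ones: 43.3% against 33.1% in the shortest and 44.3% against 34.3% in the longest.

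Single genes show how far the groups vary. MT2A was at 603 and 522 CPM in the control libraries and 185 and 125 CPM after knockdown, a log2 change of -1.86 (SE 0.16, edgeR adjusted p = 2.26e-07). PTBP1 went from 671 and 572 CPM to 147 and 120 CPM, a change of -2.22 (SE 0.12, edgeR adjusted p = 2.62e-09). In both genes each knockdown library was below each control library. RAC2 (-2.44), CD68 (-1.82), PLK1 (-1.38), PHLDA2 (-1.13) and FOSL1 (-0.95) fell as well. ORAI1, the pore of the store-operated calcium channel, was at 60.6 against 12.1 FPKM in the RIP comparison and went from 44.2 and 43.6 CPM to 4.30 and 4.18 CPM. RAC2, CD68 and ORAI1 were picked after their values were seen.

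Other strongly recovered genes rose. FTL went from 935 and 989 CPM to 1668 and 1569 CPM (log2 change 0.75, SE 0.09, edgeR adjusted p = 6.37e-06), and FTH1 rose by 0.66. JUNB rose by 0.56 and KRT8, a keratin recovered at 129 against 58.7 FPKM, by 0.45. S100A11 (-0.0044) and TIMP1 (-0.29, edgeR adjusted p = 0.0595) did not pass the test. Recovery with the protein was thus seen for genes that fell, rose or did not pass.

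Histone mRNAs were an exception as a list. Of 27 histone members tested 14 rose, 1 fell, and the median change was 1.13. HIST1H2BK went from 10.8 and 14.5 CPM to 34.5 and 34.3 CPM, a log2 change of 1.44 (SE 0.18, edgeR adjusted p = 5.92e-06). Most histone genes were scarcer than HIST1H2BK in the knockdown libraries. The median over the tested histone genes was 0.715 CPM in sh_control, while the median over the 51 members was 219 FPKM in the RIP input. HIST1H1E was at 1.18 and 1.36 CPM in the control libraries and at 737 FPKM in the input. CPM and FPKM are not the same scale, and the labels name the same library kit for all samples.

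Of the 13 mitochondrial mRNAs 6 fell and 1 rose, with a median change of -0.15, and MT-CO1 fell by 0.40. Among depleted mRNAs COX7A2 rose by 0.53 (SE 0.09, edgeR adjusted p = 0.000125), SNRPG by 0.64, SNHG8 by 0.69 and HMGB2 by 1.16, while SNRPF, another depleted gene, fell by 1.62. SRSF5, the depleted SR gene, rose by 0.46 (SE 0.09, edgeR adjusted p = 0.000379). Over all members tested 37.9% rose and 35.6% fell. Of 42 oxidative phosphorylation genes 33.3% rose and 9.52% fell, and of 37 core spliceosome genes 67.6% rose and 8.11% fell. Of 20 glycolysis genes 70% fell and 10% rose, and of 26 G2/M genes 53.8% fell and 7.69% rose. Lists with few recovered genes fell as well: of 27 interferon response genes, with 1 recovered and 2 depleted, 24 fell and 0 rose, and of 15 inflammatory cytokine genes, with 1 recovered, 11 fell and 2 rose.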

How the data were processed

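RIP and input RNA of MDA-MB231 cells overexpressing a Flag-tagged protein was sequenced, with 1 library each. The authors deposited these values as FPKM in 1 table, per the file headers, made with a tool not given in the sources used here. A second table deposited by the authors holds a normalised signal for the same libraries, with a unit not given there. Knockdown libraries are deposited as raw counts per gene (34457445 to 38326930 per library) from featureCounts 1.4.6-p5 with exonic gene lengths, per the file headers. The submitters' processing notes name Cufflinks, HISAT2 2.0.5, STAR 2.5.2a, StringTie 1.3.0 and the build GRCh37, with no role. Sample columns of the count table that match no label numbered 2 and were not used. The authors' fold changes were not used, and no coordinates of the RIP tables are printed, since their build is not given.

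Ratios used a pseudocount of 1 and genes at 1 FPKM or more in either library (Python 3.11.15, pandas 2.3.3, numpy 2.4.6, scipy 1.17.1), which understates changes of low genes. The numbers of reads were estimated from the step of FPKM times length that 1 read makes. Counts were fitted with edgeR 4.0.16 (R 4.3.3; quasi-likelihood test after TMM scaling, 6 libraries of sh_control, sh_SRSF3 and sh_TDP43, 3 residual degrees of freedom), with DESeq2 1.42.0 as an alternative. No 2 replicates agreed within sampling noise (chi-square of 12 or more per gene). Both procedures were tested on simulated data.

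The genes described and the 34 gene lists were chosen with earlier results of these data known. Named genes are SRSF3, TARDBP, all SR genes, the 15 highest and 15 lowest called genes at 5 FPKM or more outside small RNAs and mitochondrial genes, and per list the 3 with the largest ratio; further genes are named to complete counts or as chosen after their values were seen.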

Additional observations from a re-analysis of the deposited data

Results flagged for a closer look

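As lists, 2 groups had opposite ratios in the precipitations of the 2 proteins, past 2-fold in both tables. Replication-dependent histone mRNAs had a median log2 ratio of 1.34 with Flag-SRSF3 and -1.72 with Flag-TDP43 in the FPKM table. Mitochondrially encoded mRNAs had a median of 1.85 with Flag-SRSF3 and -1.80 with Flag-TDP43. Each precipitation has 1 library, so this difference was not tested.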

How the results depend on the processing

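Of the counts and shares recomputed under other settings, 103 stayed within 1.5 times and 13 did not; the cause was not tested. With a pseudocount of 0.1 the depleted genes numbered 717, and with a pseudocount of 5 there were 358 recovered and 176 depleted. The FPKM table alone gave 1574 and 729, and the signal table alone 861 depleted. At 5 FPKM or more in both libraries, a setting added after seeing the data, 392 genes were recovered and 186 depleted, since fewer genes enter. With a pseudocount of 5 the genes recovered with both proteins numbered 12, those recovered with Flag-SRSF3 and depleted with Flag-TDP43 110, the reverse 46, and those depleted with both 32. With ratios centred on the median the reverse group numbered 151. Over the Flag-TDP43 input, also added later, the log2 ratio in the FPKM table of AL592188.6 became 3.39, that of one RNU11 gene (ENSG00000274978) -1.24 and that of SNORD3B-2 0.74, each opposite to its ratio over its own input; in the signal table AL592188.6 (-0.75) and SNORD3B-2 (-0.47) kept their sign. Leaving out 1 knockdown library at a time, 43.43% to 45.68% of recovered genes fell. In the knockdown, the correlation of deviations between libraries of the same number was 0.0755 for sh_control and sh_SRSF3, and the labels do not pair them. With the replicate number as a block 5398 genes fell and 5167 rose, and 50.45% of recovered genes fell. The median ratio of histone genes with no filter on low values was 0.09 and that of small Cajal body RNAs 0.00, since genes at 0 in both libraries enter; with a pseudocount of 5 the latter was -0.84. Counting error limits genes with few reads, such as most snoRNA and miRNA genes, and the missing replicate limits all RIP values.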
